A study of Mus musculus with 6 samples.

Results

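The skeletal myosin heavy chain genes lie side by side in 1 cluster on mouse chromosome 11. The 8 genes described here were taken by their symbols from the 52636 genes of the deposited count tables. They are the 6 myosin heavy chain genes of the cluster (*Myh3*, *Myh2*, *Myh1*, *Myh4*, *Myh8* and *Myh13*) and 2 antisense genes, *Myhas*, which faces *Myh1*, and *9430073C21Rik*, which faces *Myh2*. The myosin heavy chain is the motor protein of the thick filament, and the isoform that a fiber makes sets its speed of contraction. In adult limb muscle, *Myh4* encodes the IIb isoform of the fastest fibers, *Myh1* the IIx isoform and *Myh2* the IIa isoform of fast oxidative fibers, whereas the slow isoform comes from *Myh7* on another chromosome. *Myh3* and *Myh8* encode the embryonic and perinatal isoforms, *Myh13* encodes an isoform of extraocular muscle, and antisense transcripts between fast myosin genes have been described in rodent muscle.

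RNA was sequenced from tibialis anterior (TA) muscle of 3 iMS*Bmal1*+/+ and 3 iMS*Bmal1*-/- male C57BL/6 mice, with 1 library per mouse. All mice carried floxed *Bmal1* alleles and HSA-MCM, a Cre recombinase that becomes active with tamoxifen and is driven by the human skeletal actin promoter, so that the knockout is limited to skeletal muscle fibers. At 12 to 16 weeks of age, iMS*Bmal1*-/- mice were injected with tamoxifen (2 mg per day for 5 days) and iMS*Bmal1*+/+ mice with vehicle (sunflower seed oil with 15% ethanol), and TA muscles were collected 5 weeks later. Knockout and tamoxifen therefore cannot be told apart. The comparison asks which cluster genes, and which shares of the fast isoforms, differ between muscle with and without BMAL1, a transcription factor of the molecular clock. Counts on genes added up to 2091912, 1997203 and 2716079 per iMS*Bmal1*+/+ library and to 2403438, 1616290 and 2068657 per iMS*Bmal1*-/- library. These totals are a small part of the read depth per sample that the authors state. The reason was not tested, and it limits every count and share given here. A gene at 0 counts may have had up to 3, which is 1.14 to 1.80 CPM (counts scaled to the library size by TMM) in these libraries, for counting error only.

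*Arntl*, the gene that encodes BMAL1, had counts of 5, 4 and 11 across the iMS*Bmal1*+/+ mice and 13, 5 and 5 across the iMS*Bmal1*-/- mice. The groups overlapped, and the gene failed the filter on low counts. A count over the whole gene can also take in exons outside the deleted part, which was not tested. These values therefore do not check the labels. The tissue label could be checked with 8 genes of skeletal muscle fibers, all of which passed the filter on low counts. Summed over these 8 genes, the iMS*Bmal1*+/+ libraries had 7200, 9122 and 7749 CPM and the iMS*Bmal1*-/- libraries 9608, 10127 and 11374 CPM, and *Ttn* had the most counts. Markers of heart summed to between 4.13 and 8.99 CPM, with *Myl7* and *Tnni3* at 0 in all libraries. Markers of satellite cells, the stem cells of muscle, summed to at most 3.59 CPM. The strand setting of the counting is not given, as described next, so that low or 0 counts do not show absent RNA. These low sums therefore do not check whether heart tissue or satellite cells were absent.

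The library kit keeps the strand of the RNA, but the strand setting with which the reads were counted is not given in the sources used here. Of the 8 skeletal muscle markers, 5 have exons faced by another gene, which had more counts than the marker in 2 of the 5 cases. *Ckm*, the creatine kinase of muscle, had 9583 counts over the 6 libraries, and *A930016O22Rik*, which faces it, had 1092649, whereas *Neb* had 16497 and its facing gene *Gm13522* had 93. Exon overlaps were 451 bp for *A930016O22Rik* and 453 bp for the facing gene of *Ttn*, which also had more counts than its marker. They were 45 bp for *Gm13522*, 220 bp for the facing gene of the marker *Des* and 64 bp for that of *Mb*, which had fewer. In the mitochondrial genome, *mt-Nd6*, which is encoded on the strand opposite to the other protein genes, had 416836 counts, and of 2 genes on that other strand *mt-Co1* had 3861 and *mt-Nd5* had 180668. Among 14 listed genes of fast fibers, 5 were faced, and the facing gene had more counts in 4 cases. *Rabep2*, which faces *Atp2a1*, had 1674470 counts against 18498, and *Ube2c*, which faces *Tnnc2*, had 842868 against 2010. The markers *Tnnt3*, *Acta1* and *Pvalb*, which no annotated gene faces, had 18319, 9212 and 628. Whether a count given here for a gene came from its own transcript or from RNA of the opposite strand was not tested. The values below are named by the gene to which the deposited table assigns them.

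On GRCm38 (mm10), the cluster spans chr11:67078300-67371586, which is 293287 bp and holds 11 annotated genes. The 6 myosin genes are on the plus strand in the order *Myh3*, *Myh2*, *Myh1*, *Myh4*, *Myh8* and *Myh13*. *9430073C21Rik* (chr11:67195680-67199234, minus strand) begins 817 bp upstream of *Myh1* and runs into the end of *Myh2*, where 237 bp of its 2173 bp of exons (10.9%) face the last of 40 exons. *Myhas* (chr11:67211256-67237573, minus strand) begins 455 bp upstream of *Myh4* and extends across the 3′ part of *Myh1*. Of its 2027 bp of exons, 515 bp (25.4%) face exons 22 and 40 of *Myh1*, and 0 bp face *Myh4*. No annotated gene faces the exons of *Myh3*, *Myh4*, *Myh8* or *Myh13*. Among the 3 other genes in the interval, *Mir6923* and *Gm26476* had 0 counts in every library. The remaining gene is *2310065F04Rik*, a long noncoding RNA between *Myh3* and *Myh2* that is known as linc-MYH.

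**Figure D1:**
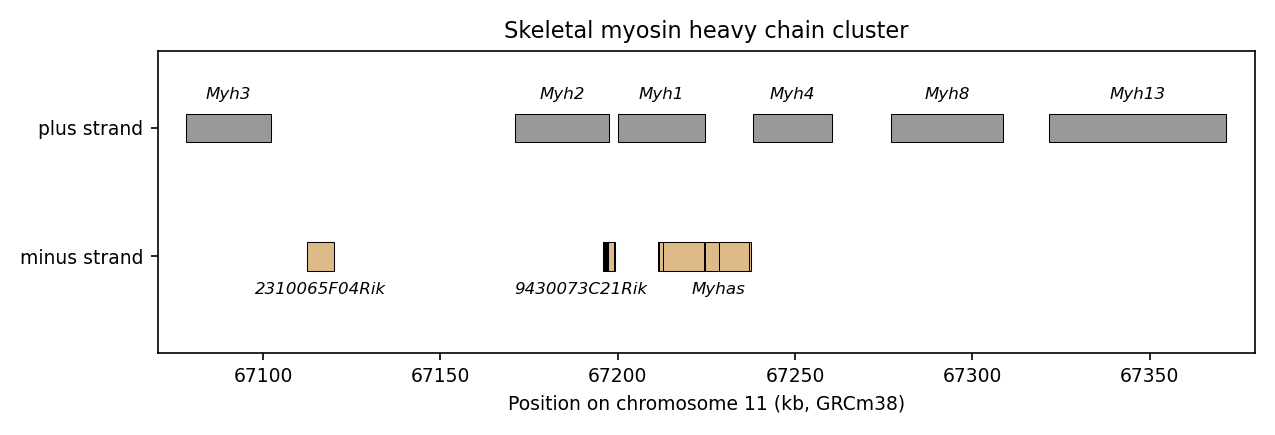
Map of the cluster on chromosome 11 (x axis in kb, GRCm38), with genes of the plus strand above and of the minus strand below. Boxes are annotated gene spans, and black bars in the 2 antisense genes are their exons. *Myhas* covers the 3′ part of *Myh1* and begins 455 bp upstream of *Myh4*.

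The antisense gene *Myhas* was the only 1 of the 6 tested cluster genes that passed the threshold (adjusted p under 0.05), and it was lower in iMS*Bmal1*-/- muscle. Among all 6831 genes tested, 1.83% passed in either direction, 0.761% higher and 1.07% lower in iMS*Bmal1*-/- muscle. In all, 125 genes passed, and leaving out iMS*Bmal1*-/- replicate 1 or iMS*Bmal1*-/- replicate 2 brought the number to 66 or 60. *Myh2* and *Myh4* had higher values in each iMS*Bmal1*-/- library than in any iMS*Bmal1*+/+ library but did not pass, and the values of *Myh1* overlapped between the groups. Together with *Myhas*, they are 3 of the 6 tested cluster genes whose groups did not overlap, against 17.3% of all genes tested. *Myh3* and *Myh13* failed the filter on low counts. In whole muscle, fewer cells of a type and less RNA per cell cannot be told apart.

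*Myh4*, the IIb gene, had counts of 5743, 7926 and 10943 across the iMS*Bmal1*+/+ mice and 10574, 7341 and 11446 across the iMS*Bmal1*-/- mice. Scaled by TMM, this was 2856, 4092 and 4154 CPM in iMS*Bmal1*+/+ libraries against 4601, 4398 and 5458 CPM in iMS*Bmal1*-/- libraries. The 3 iMS*Bmal1*-/- libraries were above the 3 iMS*Bmal1*+/+ libraries, of which replicate 1 was the lowest. The means were 3700 ± 732 CPM (SD, n = 3) and 4819 ± 563 CPM (SD, n = 3). The log2 fold change was 0.38 (SE, the standard error, 0.13, adjusted p = 0.205, edgeR), and without iMS*Bmal1*+/+ replicate 1 it was 0.22 (adjusted p = 0.531, edgeR).

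*Myh1*, the IIx gene, had counts of 2931, 2849 and 2725 across the iMS*Bmal1*+/+ mice and 2870, 2552 and 2851 across the iMS*Bmal1*-/- mice. The normalised values of 1321 ± 248 CPM (SD, n = 3) and 1379 ± 141 CPM (SD, n = 3) overlapped. Its log2 fold change was 0.06 (SE 0.13, adjusted p = 0.912, edgeR). The sign changed when iMS*Bmal1*+/+ replicate 3 (-0.090) or iMS*Bmal1*-/- replicate 2 (-0.013) was left out.

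*Myh2*, the IIa gene, was the least counted of the adult fast genes, with counts of 292, 213 and 331 across the iMS*Bmal1*+/+ mice and 429, 399 and 309 across the iMS*Bmal1*-/- mice. Scaled by TMM, iMS*Bmal1*+/+ libraries had 145, 110 and 126 CPM and iMS*Bmal1*-/- libraries 187, 239 and 147 CPM. The groups did not overlap, but the highest iMS*Bmal1*+/+ library and the lowest iMS*Bmal1*-/- library were close to each other. The means were 127 ± 17.7 CPM (SD, n = 3) and 191 ± 46.0 CPM (SD, n = 3). The log2 fold change of 0.58 (SE 0.15, adjusted p = 0.0630, edgeR) did not pass the threshold, and it did so without iMS*Bmal1*-/- replicate 3 (0.74, adjusted p = 0.0124, edgeR).

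The developmental and extraocular genes were near the limit of detection. The embryonic gene *Myh3* had counts of 3, 0 and 3 across the iMS*Bmal1*+/+ mice and 2, 2 and 4 across the iMS*Bmal1*-/- mice, and *Myh13* had 5, 6 and 0 across the iMS*Bmal1*+/+ mice and 0, 5 and 1 across the iMS*Bmal1*-/- mice. A difference in these genes was not detectable at these counts. The perinatal gene *Myh8* had counts of 5, 66 and 13 across the iMS*Bmal1*+/+ mice and 12, 2 and 11 across the iMS*Bmal1*-/- mice. A single library, iMS*Bmal1*+/+ replicate 2, held most of the *Myh8* counts, and its 66 counts have a 95% exact Poisson interval of 51.0 to 84.0, for counting error only. The other 5 libraries were within 2 to 13 counts and overlapped between the groups. The log2 fold change of *Myh8* was -1.70 (SE 0.71, adjusted p = 0.327, edgeR), and without iMS*Bmal1*+/+ replicate 2 it was 0.079 (adjusted p = 0.982, edgeR).

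*Myhas* is annotated on the opposite strand. It had counts of 76065, 61643 and 60422 across the iMS*Bmal1*+/+ mice and 48835, 36870 and 37063 across the iMS*Bmal1*-/- mice. It ranked between 6 and 10 among the most counted genes of each library and held 1.79 to 3.64% of its counts. The normalised values were 37824, 31822 and 22934 CPM in iMS*Bmal1*+/+ libraries against 21249, 22087 and 17673 CPM in iMS*Bmal1*-/- libraries. The lowest iMS*Bmal1*+/+ library, replicate 3, was close to the highest iMS*Bmal1*-/- library, and the groups did not overlap. From 30860 ± 7491 CPM (SD, n = 3), *Myhas* fell to 20336 ± 2344 CPM (SD, n = 3) in iMS*Bmal1*-/- muscle, or by -0.60 on the log2 scale (SE 0.15, adjusted p = 0.0447, edgeR). The call did not hold in 9 of 15 alternative settings, although the direction was the same in all 15. The adjusted p in edgeR was 0.151 and 0.122 without iMS*Bmal1*+/+ replicates 1 and 2, and 0.119, 0.0879 and 0.229 without iMS*Bmal1*-/- replicates 1, 2 and 3.

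*9430073C21Rik* had counts of 1265, 1226 and 987 across the iMS*Bmal1*+/+ mice and 1998, 1484 and 1202 across the iMS*Bmal1*-/- mice. At 629, 633 and 375 CPM in iMS*Bmal1*+/+ libraries against 869, 889 and 573 CPM in iMS*Bmal1*-/- libraries, the groups overlapped through iMS*Bmal1*-/- replicate 3. The means were 546 ± 148 CPM (SD, n = 3) and 777 ± 177 CPM (SD, n = 3). The log2 fold change was 0.51 (SE 0.17, adjusted p = 0.185, edgeR), opposite in sign to that of *Myhas*. Without iMS*Bmal1*-/- replicate 3 it passed the threshold (0.69, adjusted p = 0.0443, edgeR), and without iMS*Bmal1*+/+ replicate 3 it was 0.30 (adjusted p = 0.514, edgeR). The noncoding RNA *2310065F04Rik* had counts of 60, 58 and 86 across the iMS*Bmal1*+/+ mice and 61, 45 and 57 across the iMS*Bmal1*-/- mice, with a log2 difference of -0.20 (SE 0.19, adjusted p = 0.763, edgeR).

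**Figure D2:**
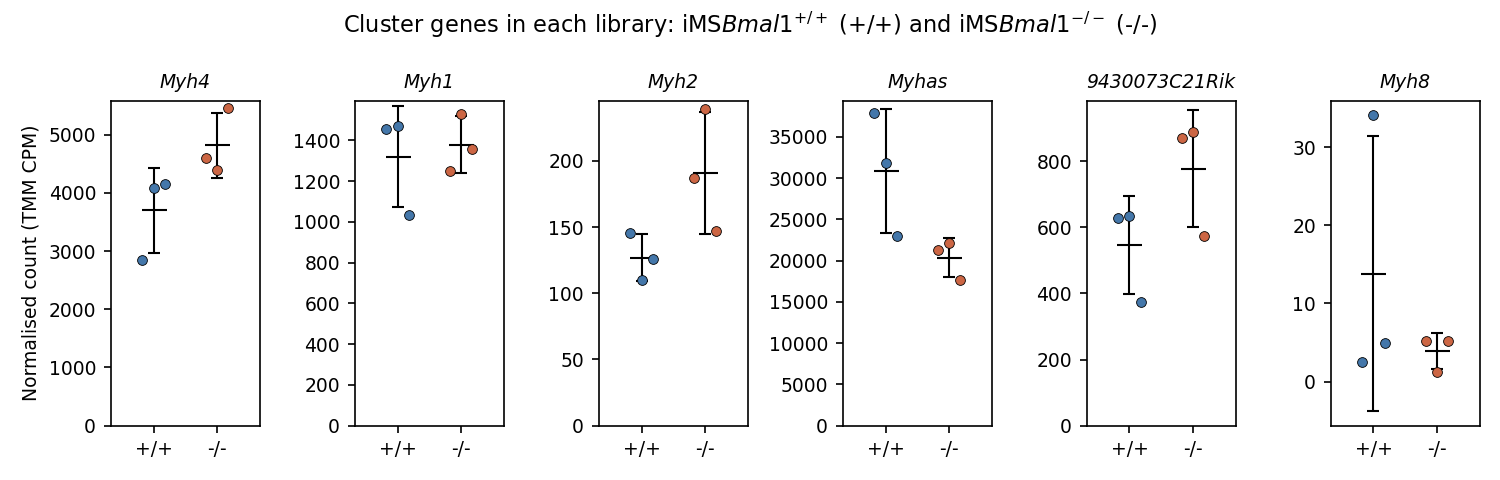
Normalised counts (y axis, TMM CPM, each panel with its own scale) of the 6 tested cluster genes in iMS*Bmal1*+/+ (+/+, blue) and iMS*Bmal1*-/- (-/-, orange) TA muscle. Points are libraries, 1 per mouse, and bars are the mean ± SD (n = 3). *Myhas* was at or above 22934 CPM in iMS*Bmal1*+/+ and at or below 22087 CPM in iMS*Bmal1*-/- libraries, and *Myh4* lay in the opposite order.

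Per kb of each gene's own exons and with counts as assigned, the value of *Myhas* was the highest of the cluster, at 15224 ± 3696 CPM per kb in iMS*Bmal1*+/+ and 10033 ± 1156 CPM per kb in iMS*Bmal1*-/- muscle (SD, n = 3 each). *Myh4* followed with 615 ± 122 and 801 ± 93.5 CPM per kb (SD, n = 3 each). *9430073C21Rik* (251 ± 68.1 and 358 ± 81.4 CPM per kb, SD, n = 3 each) and *Myh1* (208 ± 39.1 and 217 ± 22.2 CPM per kb, SD, n = 3 each) were neighbours in this order. They were within each other's spread in iMS*Bmal1*+/+ muscle, and their ranges were separate in iMS*Bmal1*-/- muscle. *Myh2* was at 17.8 ± 2.47 and 26.8 ± 6.44 CPM per kb (SD, n = 3 each). *Myh3*, *Myh8* and *Myh13* had at most 2.89 CPM per kb in any library, and their order was not resolved. This order depends on the strand setting, since only 515 bp of *Myhas* and 237 bp of *9430073C21Rik* face exons of a myosin gene. Across the 6 libraries, the order by *Myh4* level was the exact reverse of the order by *Myhas* level, on values scaled by the same library sizes.

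The share of each myosin gene was taken within each library, as the percent of the 6 myosin genes' counts per kb. *Myh4* made up 65.4, 73.1 and 79.2% in iMS*Bmal1*+/+ libraries against 77.4, 72.7 and 79.4% in iMS*Bmal1*-/- libraries, the largest share of the values as assigned. No annotated gene faces *Myh4*, so that no value for a reading from the opposite strand exists and this order depends on the strand setting. The means were 72.6% ± 6.90 (SD, n = 3) and 76.5% ± 3.45 (SD, n = 3), a difference of 3.90 percentage points (exact permutation test, two-sided, p = 0.6). Without iMS*Bmal1*+/+ replicate 1, which had the lowest *Myh4* share, the difference was 0.325 points, and without iMS*Bmal1*+/+ replicate 3 it was 7.22 points. The *Myh1* share was 31.6, 24.9 and 18.7% in iMS*Bmal1*+/+ libraries against 19.9, 23.9 and 18.7% in iMS*Bmal1*-/- libraries, with means of 25.1% ± 6.48 and 20.8% ± 2.73 (SD, n = 3 each, exact permutation p = 0.5). The difference of -4.22 points became -0.934 points when iMS*Bmal1*+/+ replicate 1 was left out and -7.41 points when iMS*Bmal1*+/+ replicate 3 was. The *Myh1* share was thus highest in the same library in which the *Myh4* share was lowest, and the groups overlapped for both. *Myh2* made up 2.80, 1.66 and 2.02% in iMS*Bmal1*+/+ libraries against 2.65, 3.33 and 1.81% in iMS*Bmal1*-/- libraries, with means of 2.16% ± 0.587 and 2.59% ± 0.763 (SD, n = 3 each, exact permutation p = 0.6), and the difference of 0.434 points became 0.0665 points when iMS*Bmal1*-/- replicate 2 was left out and 0.828 points when iMS*Bmal1*-/- replicate 3 was. The other 3 genes stayed minor, with no single share above 0.311%. No shift larger than the spread between mice was therefore seen in these shares of counts as assigned. Shares of myosin mRNA from the plus strand were not tested.

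For the 2 genes annotated on the minus strand, the share of *9430073C21Rik* was taken in the counts per kb of both. It was 1.53, 1.82 and 1.501% in iMS*Bmal1*+/+ libraries against 3.68, 3.62 and 2.94% in iMS*Bmal1*-/- libraries. The lowest iMS*Bmal1*-/- library was above the highest iMS*Bmal1*+/+ library. From 1.62% ± 0.178 (SD, n = 3), the share was higher by 1.79 percentage points at 3.41% ± 0.412 (SD, n = 3). The exact permutation test gave p = 0.1, the smallest that 3 libraries against 3 allow, and 0.4 after Benjamini-Hochberg adjustment over the 8 shares compared. The difference was between 1.66 and 2.03 points when any of the 6 libraries was left out, and 0.864 points with the length of the longest transcript in place of all exons. *Myhas* made up the remainder, from 96.3 to 98.5%. Counted per kb of the overlap with the facing myosin gene, a scaling chosen after seeing the data, the *9430073C21Rik* share was 3.69% ± 0.397 and 7.60% ± 0.880 (SD, n = 3 each). The order of the libraries is the same under any length, so that this scaling is no added support.

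**Figure D3:**
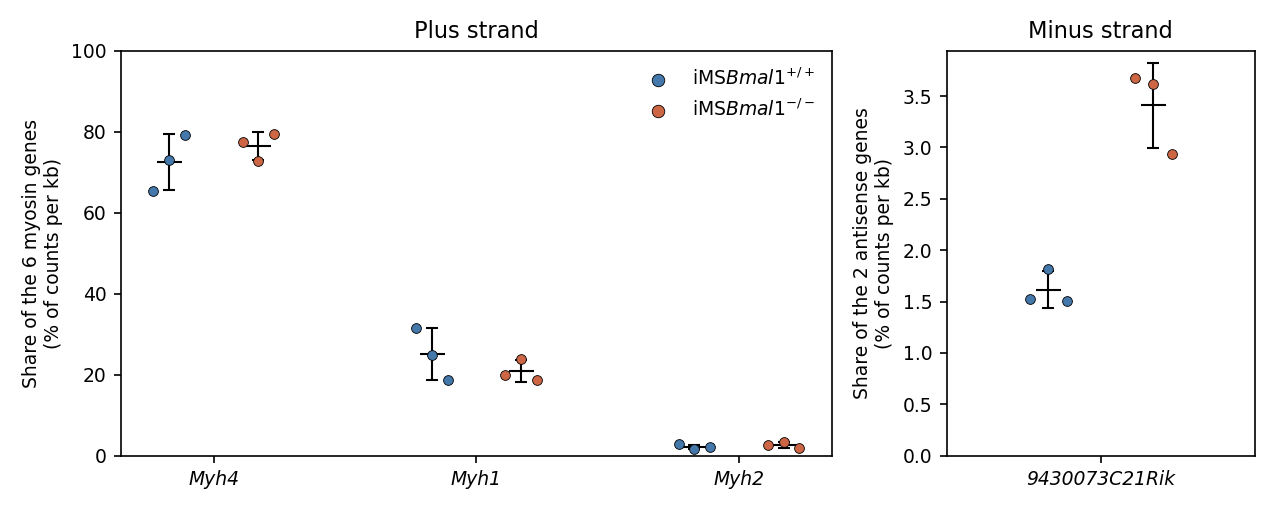
Shares per library of the counts per kb of exons (y axis, %), on the left for *Myh4*, *Myh1* and *Myh2* among the 6 myosin genes and on the right for *9430073C21Rik* among the 2 antisense genes. Points are libraries of iMS*Bmal1*+/+ (blue) and iMS*Bmal1*-/- (orange) TA muscle, and bars are the mean ± SD (n = 3). Panel titles name the annotated strand of the genes, with counts as assigned. The shares of the myosin genes overlapped, whereas the *9430073C21Rik* share was at most 1.82% in iMS*Bmal1*+/+ and at least 2.94% in iMS*Bmal1*-/- libraries.

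Each antisense gene was also set against the myosin gene that it faces, as a ratio of counts within a library, which does not depend on library size. *Myhas* had 26.0, 21.6 and 22.2 counts for each count of *Myh1* in iMS*Bmal1*+/+ libraries against 17.02, 14.4 and 13 in iMS*Bmal1*-/- libraries. The groups did not overlap, and the difference in the log2 ratio was -0.65 (4.53 ± 0.14 in iMS*Bmal1*+/+ and 3.88 ± 0.20 in iMS*Bmal1*-/-, SD, n = 3 each, exact permutation p = 0.1, the smallest possible, and 0.233 after adjustment over 7 ratios). For *9430073C21Rik* and *Myh2*, which both had higher means in iMS*Bmal1*-/- muscle, the ratio was 4.33, 5.76 and 2.98 in iMS*Bmal1*+/+ libraries against 4.66, 3.72 and 3.89 in iMS*Bmal1*-/- libraries. These values overlapped, with a log2 difference of -0.05 (exact permutation p = 1.0) that became 0.18 when iMS*Bmal1*+/+ replicate 2 was left out and 0.019 when iMS*Bmal1*-/- replicate 2 was. The ratio of *9430073C21Rik* to *Myhas* had a log2 difference of 1.10, the same comparison as their share, and that of *Myhas* to *Myh4* one of -0.97, each without overlap (exact permutation p = 0.1, adjusted 0.233). Between the adult isoforms, the log2 difference was 0.49 for *Myh2* to *Myh1* (exact permutation p = 0.2), -0.32 for *Myh1* to *Myh4* (p = 0.5) and 0.17 for *Myh2* to *Myh4* (p = 0.7), with overlapping groups in all 3.

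The myosin genes are close in sequence, and reads from a shared stretch can be placed on the wrong member, so that the split of counts between them is uncertain. The coding sequences of *Myh1* and *Myh2* were 91.0% identical and shared an unbroken run of 268 bases. *Myh1* and *Myh4* were 90.1% identical (longest run 161 bases), and *Myh2* and *Myh4* 88.1% (146 bases). Of all windows of 100 bases in a transcript, 9.97% of those of *Myh1* occurred unchanged in another gene of the cluster, 9.28% for *Myh2* and 3.85% for *Myh4*. The stretch of *Myh1* that *Myhas* faces in exon 22 is shown because counts of these genes meet there (GENCODE M21, chr11:67211329-67211584, plus strand, coding bases 2445 to 2700). Capitals mark the 52 of 256 bases at which *Myh2*, *Myh4* or both differ from *Myh1*, with 42 differences from *Myh2* and 26 from *Myh4*. The longest stretch without a difference was 22 bases.
*Myh1* exon 22: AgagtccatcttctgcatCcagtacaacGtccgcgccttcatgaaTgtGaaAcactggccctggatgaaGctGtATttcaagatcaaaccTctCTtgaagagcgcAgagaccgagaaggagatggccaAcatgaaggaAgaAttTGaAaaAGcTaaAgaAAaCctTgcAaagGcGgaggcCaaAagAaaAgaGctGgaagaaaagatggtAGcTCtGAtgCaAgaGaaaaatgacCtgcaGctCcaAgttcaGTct
The other stretch of *Myh1* that *Myhas* faces covers 259 bp in the last exon, of which 153 bp are coding, and the stretch of *Myh2* that *9430073C21Rik* faces covers 237 bp, of which 153 bp are coding.

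Promoters from 250 bases before to 50 bases after the start (RefSeq, GRCm38.p6) were matched for 7 of the 8 genes. These RefSeq starts are not all those of the gene spans above. The *Myh13* window (chr11:67326853-67327152) lies inside its annotated span, which begins at 67321658, and the *Myhas* window (chr11:67237232-67237531) also lies inside its span. The *Myh4* window (chr11:67237562-67237861) ends before the annotated start at 67238029. The clock E-box CACGTG, searched on both strands, was in 0 of these 7 promoters and in 7.2% of all 32851 promoters of this length. The wider E-box CANNTG, of which CACGTG is 1 form, was in the promoters of *Myh3*, *Myh4*, *Myh8* and *Myh13* and in 72.3% of all promoters. TATAAA, also searched on both strands, was in those of all matched genes but *Myh13*, against 13.6% of all promoters. In the *Myh8* promoter it was on the opposite strand only. The MEF2 consensus, bound by a family of muscle transcription factors, was in those of *Myh1*, *Myh4* and *Myh8*, against 3.2%, and the CArG box of serum response factor in those of *Myh4* and *Myh13*, against 1.6%. The promoters of *Myh1*, *Myh2*, *Myh4* and *Myh8* share the run TTCTAATTATATCC, which occurred in 4 of the 32851 promoters (0.0122%), those 4 alone. Upstream of it they share TCAAATTAT, which was in 59 promoters (0.18%). The windows that hold both runs are shown since the adult fast genes have them in common, and capitals mark the shared runs. A match is a description of these letters and not a measured site.
*Myh1* (chr11:67199880-67199961, plus strand, 222 to 141 bases before the start): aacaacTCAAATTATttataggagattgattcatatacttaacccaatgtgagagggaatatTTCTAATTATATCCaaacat
*Myh2* (chr11:67170848-67170921, plus strand, 179 to 106 bases before the start): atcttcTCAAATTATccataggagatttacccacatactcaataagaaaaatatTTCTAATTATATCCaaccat
*Myh4* (chr11:67237619-67237673, plus strand, 193 to 139 bases before the start): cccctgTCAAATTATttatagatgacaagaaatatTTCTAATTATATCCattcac
*Myh8* (chr11:67277014-67277089, plus strand, 110 to 35 bases before the start): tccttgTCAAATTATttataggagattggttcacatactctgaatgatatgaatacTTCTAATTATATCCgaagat

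Other genes of fast fibers had positive values throughout. All 14 listed fast genes were tested, 2 rose in iMS*Bmal1*-/- muscle (against 0.761% of all genes tested), 11 had an unadjusted p under 0.05 in edgeR (against 814 of 6831), and 14 of 14 had log2 fold changes above 0, with a median of 0.43 against -0.00087 over all genes tested. Groups did not overlap for 9 of the 14, against 17.3% of all genes tested. *Mylpf*, the regulatory light chain of fast myosin, rose from 107 ± 16.8 to 192 ± 30.9 CPM (SD, n = 3 each), or by 0.85 on the log2 scale (SE 0.14, adjusted p = 0.00241, edgeR). *Pvalb*, the calcium buffer parvalbumin of the fastest fibers, rose from 35.2 ± 6.998 to 65.7 ± 3.03 CPM (SD, n = 3 each), or by 0.90 on the log2 scale (SE 0.17, adjusted p = 0.00700, edgeR). Both calls held in edgeR with any library left out. The 3 fast genes with the most counts did not pass, with log2 fold changes of 0.32 for the calcium pump *Atp2a1*, 0.37 for the troponin *Tnnt3* and 0.09 for the tropomyosin *Tpm1*. Summed over the list, iMS*Bmal1*+/+ libraries had 3811, 4838 and 4398 CPM and iMS*Bmal1*-/- libraries 5101, 5393 and 6331 CPM. *Pvalb* and *Tnnt3* are also among the 8 skeletal muscle markers, of which 8 had log2 fold changes above 0, 7 had an unadjusted p under 0.05 in edgeR and 1 passed (*Pvalb*, and 3 in DESeq2), with a median of 0.38, and whose sums given above did not overlap either. The part of these sums in the values of *Myh4* and *Myh2* was not tested.

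Genes that face listed fast genes were also compared. Exons of 5 fast genes were faced by another gene, which had more counts than the fast gene in 4 of the 5 cases. *Atp2a1* had 18498 counts over all libraries and its facing gene *Rabep2* had 1674470, and differed by -0.11 on the log2 scale (adjusted p = 0.799, edgeR). Of the 4 facing genes tested, 0 passed in edgeR, in DESeq2 or in limma, against 1.83% of all genes tested in edgeR. Of the same 4, 0 had an unadjusted p under 0.05 in edgeR, and their median log2 fold change was 0.07. Over all genes tested, 814 had an unadjusted p under 0.05 in edgeR.

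Genes of slow fibers had few counts as assigned, which does not show that their RNA was scarce, since the strand setting is not given. Of 14 listed slow genes, 3 passed the filter (*Myh7b*, *Mybpc1* and *Atp2a2*), against 6831 of all 52636 genes. Their log2 fold changes were 0.07, -0.18 and 0.01, with overlapping groups. Of these 3, 0 passed in edgeR, DESeq2 or limma, against 1.83% of all genes tested in edgeR. An unadjusted p under 0.05 in edgeR was reached by 0, against 814 of all 6831 genes tested. *Myh7*, the slow myosin, had counts of 1, 0 and 1 across the iMS*Bmal1*+/+ mice and 0, 1 and 0 across the iMS*Bmal1*-/- mice, and *Tnni1*, the slow troponin I, had 0 in all libraries. *Mhrt*, which faces *Myh7* over 484 bp of exons, had counts of 23, 10 and 7 across the iMS*Bmal1*+/+ mice and 29, 15 and 15 across the iMS*Bmal1*-/- mice, at 0.63 on the log2 scale between the groups (SE 0.44, adjusted p = 0.642, edgeR). The slow genes were faced in 6 of 14 cases, and 1 of the 3 facing genes tested passed, namely *Gm48752*, which faces *Mybpc1*, against 1.07% of all genes tested that passed in this direction. It had counts of 4158, 4084 and 4701 across the iMS*Bmal1*+/+ mice and 3302, 2449 and 2375 across the iMS*Bmal1*-/- mice and fell by 0.56 on the log2 scale (SE 0.11, adjusted p = 0.0127, edgeR). The call was lost when iMS*Bmal1*+/+ replicate 2 (adjusted p = 0.0555, edgeR) or iMS*Bmal1*-/- replicate 3 (adjusted p = 0.0941, edgeR) was left out.

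Outside the cluster, 9 genes were listed, namely myosin heavy chain genes and *Mhrt*, which faces *Myh7*. Of these, 5 were tested, *Mhrt* among them, and 0 passed in edgeR, DESeq2 or limma, against 1.83% of all genes tested in edgeR. In edgeR, 0 had an unadjusted p under 0.05, against 814 of all 6831 genes tested, and the median log2 fold change was 0.15. *Myh7b* had the most counts (636 over all libraries), followed by the nonmuscle genes *Myh10* (310) and *Myh9* (185). *Myh9* was the only one of the 5 whose groups did not overlap (against 17.3% of all genes tested), at 12.3 ± 2.53 and 17.6 ± 2.09 CPM (SD, n = 3 each, log2 fold change 0.53, adjusted p = 0.456, edgeR). *Myh11* of smooth muscle had 79 counts, *Myh14* 54, *Myh6* of the heart 16 and *Myh15* 0.

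Among 25 regulators of fiber type, 13 were tested and 0 passed in edgeR, DESeq2 or limma, against 1.83% of all genes tested in edgeR. The median log2 fold change of the 13 was 0.26. An unadjusted p under 0.05 in edgeR was reached by 2 of the 13, against 814 of 6831. *Maf* had a log2 fold change of -0.06. For *2310065F04Rik*, the groups did not overlap, with 30.8 ± 1.59 and 26.9 ± 0.324 CPM (SD, n = 3 each), the only such gene among the 13, against 17.3% of all genes tested. Of 12 genes that are active in developing or denervated muscle, 3 were tested (*Myh8*, *Gadd45a* and *Actc1*). *Actc1*, the cardiac actin that skeletal muscle makes during development, had counts of 5, 2 and 1 across the iMS*Bmal1*+/+ mice and 19, 17 and 13 across the iMS*Bmal1*-/- mice. It passed the filter on low counts only through the iMS*Bmal1*-/- libraries, so that its call is no result about the list. The means were 1.299 ± 1.08 and 8.22 ± 1.99 CPM (SD, n = 3 each, log2 fold change 2.67, SE 0.55, adjusted p = 0.0139, edgeR). Its adjusted p in edgeR was 0.0555 and 0.0828 when iMS*Bmal1*+/+ replicate 2 or 3 was left out and 0.0861 and 0.111 when iMS*Bmal1*-/- replicate 1 or 2 was, and DESeq2 gave it none. *Gadd45a* differed by 0.66 on the log2 scale (adjusted p = 0.657, edgeR), and *Myog* and *Sln* had 0 counts. The 7 listed neighbours of the cluster all failed the filter, with at most 17 counts over all libraries in *Tmem220*, then *Map2k4* (9) and *Shisa6* (8).

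For each tested cluster gene, the 3 genes whose log2 CPM over the 6 libraries was closest to it were found among 4452 genes with a mean of at least 10 CPM, by Pearson r. With so few libraries, which share depth and genotype, r is only a description. The closest genes were *Gm17324* (0.997), *Pdhb* (0.975) and *Tomm20l* (0.973) for *Myh1*, and *Brsk2* (0.990), *A930029G22Rik* (0.984) and *Gm18014* (0.982) for *Myh2*. For *Myh4*, *Trdn*, which encodes triadin of the calcium release complex, came first (0.988), followed by *Atcay* (0.987) and *Nup43* (0.979). Those of *Myh8* were *Lrrc39* (0.991), *Gm9828* (0.962) and *Gm37206* (0.951). *Myhas* was closest to *Gm16793* (0.994), *Esyt1* (0.992) and *Tom1l1* (0.983), and *9430073C21Rik* to *Gm48732* (0.997), *Mdh1* (0.993) and *Gm45760* (0.983). Of these 18 genes, 0 passed in edgeR, DESeq2 or limma, against 1.83% of all genes tested in edgeR. Of the same 18, 5 had an unadjusted p under 0.05 in edgeR, against 814 of all 6831 genes tested.

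Markers of other cells were given beside these results by their sums in each library, and their part in the results was not tested. The 5 endothelial markers summed to 10.9, 14.5 and 11.8 CPM in iMS*Bmal1*+/+ libraries against 17.4, 17.4 and 15.7 CPM in iMS*Bmal1*-/- libraries without overlap, with *Cdh5* as the most counted gene (87 counts) and 1 tested. The 4 smooth muscle markers summed to 40.8, 33.0 and 38.3 CPM in iMS*Bmal1*+/+ libraries against 29.6, 32.9 and 31.0 CPM in iMS*Bmal1*-/- libraries, also without overlap, with *Tagln* the most counted (303 counts) and 2 tested. Sums overlapped for the 5 markers each of blood (152 to 213 CPM, *Alas2*), adipocytes (7.96 to 12.6 CPM, *Fabp4*, with *Lep* at 0), macrophages (49.1 to 84.1 CPM, *Csf1r*, with *Adgre1* at 0), fibroblasts (14.8 to 35.3 CPM, *Col3a1*) and nerve (2.66 to 10.01 CPM, *Pmp22*), for the 4 of satellite cells (0.477 to 3.59 CPM, *Cdh15*, with *Chodl* at 0) and for the 4 of heart (*Nppa*). Of the 9 such genes that were tested, 0 passed in edgeR, DESeq2 or limma, against 1.83% of all genes tested in edgeR. An unadjusted p under 0.05 in edgeR was reached by 1 (*Csf1r*), against 814 of all 6831 genes tested.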

How the data were processed

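RNA-seq was performed on the TA of 3 mice per genotype. The authors prepared stranded libraries after depletion of ribosomal RNA, used HISAT2 for mapping to mm10 and HTSeq for counting, and versions, annotation release and strand setting are not given in the sources used here. The deposited counts are whole numbers per Ensembl gene without normalization. The second deposited table holds a normalized signal, the count divided by 1 DESeq2 size factor per library. Columns were assigned through the sample labels, with 0 unassigned. Within a group, each pair of libraries differed beyond sampling noise (chi-square over degrees of freedom from 2.88 to 10.1).

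Identifiers were matched to GENCODE mouse release 21 (52489 of 52636 found), from which positions, exons and facing genes were taken. Counts were compared with edgeR 4.0.16 (R 4.3.3): TMM factors, filterByExpr by genotype, quasi-likelihood test, two-sided, Benjamini-Hochberg adjustment over 6831 genes and a threshold of 0.05 on the adjusted p. The biological coefficient of variation was 14.8%. Shares and log2 ratios (pseudocount 1) were compared by exact permutation over the 20 assignments. Alternatives were DESeq2 1.42.0, limma 3.58.1 on the normalized signal, other normalizations and filters, the replicate number as a block, other lengths and denominators for shares, and leaving out each library. Count tests were first tried on simulated data. Scripts used Python 3.11.15 with numpy 2.4.6, pandas 2.3.3 and Biopython 1.88.

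Genes were named by rule: the 8 members, other genes of the interval, myosin heavy chain genes elsewhere, from each list the genes past the threshold and the 3 with the most counts, and the 3 most correlated genes of each tested member. Others, such as *Myh7*, *Tnni1*, *Acta1*, *Ckm* with *A930016O22Rik*, *Rabep2*, *Tnnc2* with *Ube2c*, *Gm48752*, *Neb* with *Gm13522*, *mt-Nd6*, *mt-Nd5* and *mt-Co1*, were chosen after their values were seen. The lists were fast fiber, slow fiber, fiber-type regulator, developmental and denervation genes, neighbours of the cluster and markers of 10 tissues or cell types. Members and lists were chosen with earlier results of these data known. Values per exon were not analysed here.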

Additional observations from a re-analysis of the deposited data

How the results depend on the processing

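The fold changes of *Myh4* and *2310065F04Rik* kept their direction and their side of the threshold in all alternatives, and the shares of *Myh4*, *Myh1*, *Myh2* and *9430073C21Rik*, the only ones varied, kept their direction. The log2 fold change of *Myhas* was negative in all 15, but it lost the call with a minimum of 10 counts in every library (-0.59, adjusted p = 0.0644, edgeR), upper-quartile factors (-0.59, adjusted p = 0.0524, edgeR) and limma on the normalized signal with pseudocounts of 1 (-0.61, adjusted p = 0.0506) and 0.5 (-0.61, adjusted p = 0.0514). Its adjusted p ranged from 4.15e-09 to 0.229 over all alternatives. Without a filter on low counts, 219 genes passed instead of 125, with *Myh2* (0.55, adjusted p = 0.0121), *Myh8* (-1.74, 0.00138) and *9430073C21Rik* (0.47, 0.00645) among them in edgeR. The replicate number as a block gave 220 genes, with *Myh2* (0.56, adjusted p = 0.00864) and *9430073C21Rik* (0.52, 0.00107) among them. Same-numbered libraries did not deviate together (r = -0.037, -0.017 and -0.029). The labels do not say that the numbers pair mice, so that the block is no stronger evidence. When each library was left out in turn, 60 to 109 genes passed. The log2 fold changes then ranged from -0.090 to 0.14 for *Myh1*, 0.40 to 0.74 for *Myh2*, -2.19 to 0.079 for *Myh8*, -0.78 to -0.44 for *Myhas* and 0.30 to 0.69 for *9430073C21Rik*, and the log2 ratio of *9430073C21Rik* to *Myh2* from -0.29 to 0.18. Fewer libraries are in these fits, and for the other settings the cause was not tested. Low counts limit *Myh3*, *Myh8*, *Myh13* and the 11 slow genes that failed the filter, with under 20 counts in most libraries. With 3 mice per group, the exact permutation test used for the shares can give no p under 0.1.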
